A study of Mus musculus with 28 samples.

Results

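The subject is a list of 32 type I interferon-stimulated genes, chosen by symbol as genes that interferon is known to induce, and read in every library of a study of lupus-like kidney disease in mice. All 32 were present among the 12315 genes listed for whole kidney and among the 10523 listed for sorted kidney macrophages. Polyadenylated RNA was sequenced from 16 whole kidney libraries and from 12 libraries of macrophages sorted from kidney as CD45+, F4/80 high, CD11b+ cells lacking Ly6G and Ly6C. The mice were female littermates on the C57BL/6 strain, aged 7 to 9 months, with no treatment named. There were 4 genotypes: wild-type, Rhbdf2-/-, Fcgr2b-/-, and mice lacking both genes, called double mutant below. Each genotype had 4 kidney libraries and 3 macrophage libraries, named below as in the deposited tables, where iR2 stands for Rhbdf2-/-, Fcr2b for Fcgr2b-/- and DKO for double mutant. Fcgr2b encodes the inhibitory receptor for IgG, whose loss on this strain leads to autoantibodies and nephritis, and Rhbdf2 encodes iRhom2, a partner of the protease ADAM17 that releases TNF and ligands of the EGF receptor. No Cre driver or transgene is named, and the labels do not say that either gene was lost in macrophages alone. The titles of double-mutant libraries name the Rhbdf2 knockout alone, and the genotype field names both genes.

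Type I interferons are cytokines made after viral or self nucleic acids are sensed. They bind the receptor IFNAR1 and IFNAR2, whose kinases JAK1 and TYK2 activate the complex ISGF3. STAT2 and IRF9 are subunits of ISGF3, which binds interferon-stimulated response elements in promoters. The induced genes include subunits of ISGF3 itself, sensors of viral RNA and DNA, and proteins that block viral replication, and in lupus their joint level in blood and kidney is widely used as the interferon signature.

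Promoter sequences show what many of these genes share apart from their names. RefSeq promoter windows of 300 bases on GRCm38.p6, from 250 before to 50 after the start of the gene, were found for 24 of the 32 genes. The core of the response element was searched on both strands as GAAANNGAAA, where N is any base, so that overlapping matches count separately. It was found in 12 of the 24 windows (50%) and in 3.99% of the windows of all 27025 genes in the table. At least 2 matches were present in 6 of the 24 genes and in 0.266% of all genes. The gamma-activated site, TTCNNNGAA, which reads alike on both strands and is known from genes induced by interferon gamma, was in 7 of the 24 windows (29.2%) and in 9.55% of all. A match is a description of these letters and not evidence of binding. The 8 stretches upstream of the start that carry the core are shown because they hold the letters that ISGF3 is known to recognise, and capitals mark each match on either strand.
Stat2, chr10:128270251-128270310, plus strand: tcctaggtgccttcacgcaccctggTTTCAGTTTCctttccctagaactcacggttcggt
Isg15, chr4:156200850-156200943, minus strand: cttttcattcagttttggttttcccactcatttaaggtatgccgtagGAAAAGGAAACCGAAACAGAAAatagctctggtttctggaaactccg
Ifit1, chr19:34640760-34640838, plus strand: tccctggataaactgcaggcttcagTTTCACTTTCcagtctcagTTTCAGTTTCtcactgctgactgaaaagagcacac
Ifit3, chr19:34583348-34583441, plus strand: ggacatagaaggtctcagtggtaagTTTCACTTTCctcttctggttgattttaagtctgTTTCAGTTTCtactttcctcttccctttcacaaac
Oas1a, chr5:120907526-120907650, minus strand: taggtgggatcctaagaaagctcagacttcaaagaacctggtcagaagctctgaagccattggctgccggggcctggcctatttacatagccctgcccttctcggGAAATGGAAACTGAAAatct
Oas3, chr5:120777700-120777784, minus strand: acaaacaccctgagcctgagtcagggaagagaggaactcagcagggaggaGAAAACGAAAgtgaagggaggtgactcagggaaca
Rsad2, chr12:26456538-26456597, minus strand: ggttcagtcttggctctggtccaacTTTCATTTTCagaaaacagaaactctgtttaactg
Bst2, chr8:71537562-71537627, minus strand: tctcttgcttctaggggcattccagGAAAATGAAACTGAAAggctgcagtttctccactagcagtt
In Isg15, Oas1a and Bst2 the matches overlapped into 1 longer run, while Ifit1 and Ifit3 each held 2 separate copies in the reverse direction. In Ifih1, Ddx58, Ifitm3 and Eif2ak2 the matches lay after the start and are not printed. The 12 genes with and the 12 without a match were compared by their median changes in the comparisons below. In kidney, the medians of Fcgr2b-/- against wild-type were 0.89 with a match and 0.82 without, and in macrophages the medians of double mutant against Fcgr2b-/- were 1.09 and 1.12, all as log2 changes and without a test.

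Several members lie side by side, on coordinates of the deposited files (mm10, GRCm38). Ifit2, Ifit3 and Ifit1 occupy chr19:34550694-34576419, chr19:34583531-34588731 and chr19:34640871-34650009. Rsad2 (chr12:26442753-26456452) and Cmpk2 (chr12:26469204-26479835) are neighbours. Oas2, Oas3 and Oas1a lie in that order on chromosome 5. Dtx3l (chr16:35926511-35939151) and Parp9 (chr16:35938470-35972605) overlap at their ends. The use of strand in counting is not stated in these sources, and reads in the overlap could fall to either gene, and Ifit3 and Oas1a also have close copies with which reads may be shared.

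Depth, labels and cell content bear on all that follows. Kidney libraries held 29013859 to 41615889 reads in listed genes, and macrophage libraries 30849007 to 34868489. The labels do not say that each library came from a separate mouse, so the p-values measure the spread between these libraries, which may be partly technical. Each kidney genotype was run on its own lane (5, 6, 7 and 8), and lane and genotype cannot be told apart. Reads were still counted on both targeted genes in mice lacking them: Rhbdf2 had 10.8 to 12.3 CPM (counts scaled to a common library size) in Rhbdf2-/- kidneys against 12.9 in each wild-type kidney, and Fcgr2b had 256 to 382 CPM in Fcgr2b-/- macrophages against 539 to 715 CPM in wild-type. Counts over a whole gene therefore do not check these labels. The 9 measured macrophage markers together reached 269 to 319 CPM in wild-type kidneys. Their sum was 267 to 401 CPM without Rhbdf2, 968 to 2477 CPM without Fcgr2b, and 410 to 1614 CPM in double mutants. Since kidney is a mixture, more cells of a type and more RNA per cell cannot be told apart there.

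In wild-type mice the listed genes were mostly macrophage-enriched, with exceptions that return below. Mean CPM was higher in macrophages than in whole kidney for 30 of the 32, from 1.51 times for Rsad2 to 107 times for Oas2 and 117 times for Mx1, although the tissues were normalized separately and prepared with different kits. Cmpk2, a mitochondrial nucleotide kinase, and Trim25, a ubiquitin ligase of RNA sensing, went the other way, with wild-type means of 27.9 and 125 CPM in kidney and 8.29 and 47.7 CPM in macrophages. Per kilobase of exon, Ifitm3 and Bst2, membrane proteins that hold back viral entry and release, had the highest wild-type levels in both tissues (49.3 and 24.5 CPM per kb in kidney, 543 and 492 in macrophages). The lowest were Oas3 in kidney (0.133 CPM per kb) and Cmpk2 in macrophages (2.59 CPM per kb).

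**Figure D1:**
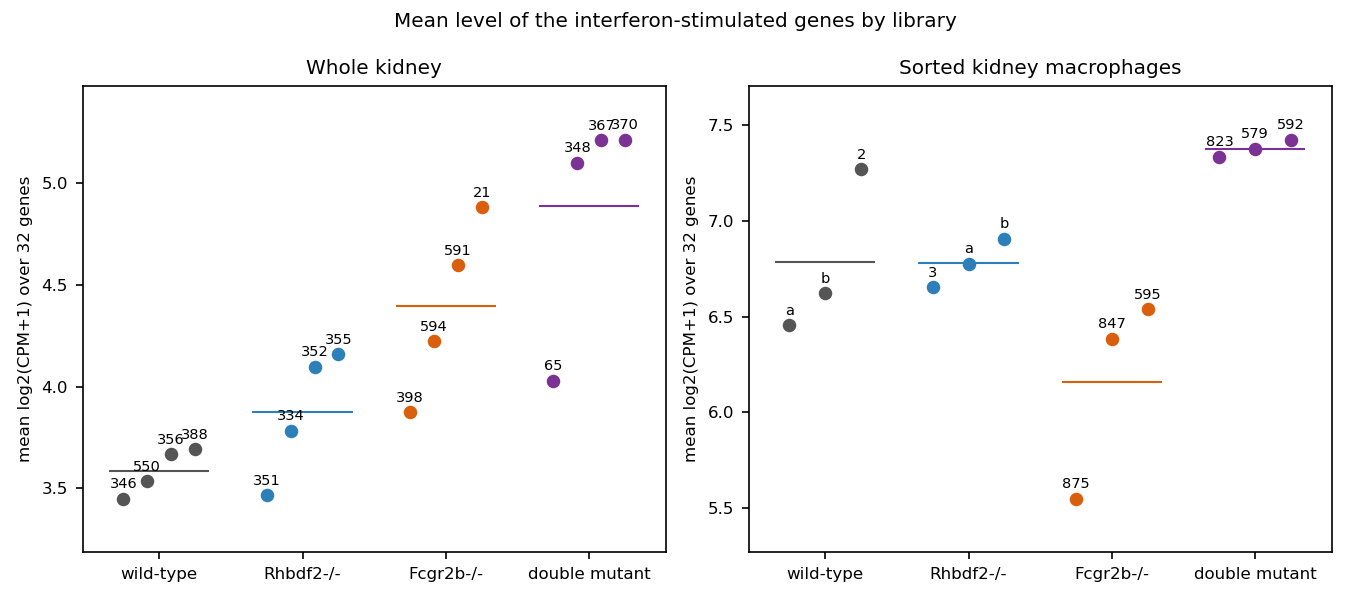
Each point is 1 library, labelled with the end of its name. The y axis is the mean log2(CPM+1) over the 32 genes, in whole kidney (left) and sorted kidney macrophages (right), and horizontal lines are group means. In kidney, double-mutant library DKO_65 (4.03) sits below the other double mutants (5.10 to 5.21). In macrophages, the 3 double mutants (7.34 to 7.42) sit above every other library, Fcgr2b-/- library Fcr2b_875 is lowest (5.55) and wild-type library WT_2 is the highest of its group (7.27).

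Loss of Fcgr2b was first compared with wild-type in whole kidney, to ask how the interferon genes stand in this lupus-prone genotype. In Fcgr2b-/- kidneys 22 of the 32 genes were higher and 3 were lower (limma, adjusted p below 0.05), against 29.5% and 30.8% of all genes. Their median log2 change was 0.95, and that of all genes was -0.01. With 4 libraries a group, changes are given as log2 differences of group means on the log2(CPM+1) scale, with the SE of the fit.

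Signalling factors rose in part. Irf7, the transcription factor that amplifies interferon production, stood at 10.6, 16.8, 16.9 and 13.7 CPM in wild-type and 72.5, 21.8, 55.8 and 51 CPM in Fcgr2b-/- kidneys. All Fcgr2b-/- values lay above all wild-type values, and the change was the largest of the list at 1.63 ± 0.38 (adjusted p = 0.00211). Irf9, the DNA-binding subunit of ISGF3, had 19.4, 21, 22 and 21.3 CPM in wild-type and 50.01, 31.4, 49.4 and 43.4 in Fcgr2b-/-, again with no overlap, and rose by 1.00 ± 0.19 (adjusted p = 0.000435). Stat2, also a subunit of ISGF3, overlapped between the groups and did not pass, at 0.47 ± 0.26 (adjusted p = 0.127).

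The OAS family includes the enzymes that produce 2',5'-oligoadenylate after binding double-stranded RNA, and 4 of its 5 genes rose. Oasl2 had 7.20, 8.99, 12.1 and 7.83 CPM in wild-type and 44.8, 15.9, 37 and 25.5 in Fcgr2b-/- kidneys. The groups did not overlap, and the rise was 1.59 ± 0.37 (adjusted p = 0.00195). Oas2 rose by 1.31 ± 0.27 (adjusted p = 0.000735), Oas1a by 1.33 ± 0.29 and Oasl1 by 1.41 ± 0.34, whereas Oas3 just missed the threshold at 0.95 ± 0.40 (adjusted p = 0.0519). The 3 IFIT genes, whose proteins bind foreign RNA ends, all rose, by 0.95 ± 0.32 (Ifit1), 0.73 ± 0.24 (Ifit2) and 0.83 ± 0.33 (Ifit3). Ifit1 had 6.66, 7.63, 8.78 and 6.78 CPM in wild-type and 21.1, 10.3, 17.2 and 14.3 in Fcgr2b-/- kidneys, so that its lowest mutant value stood above its highest wild-type value.

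Among sensors of nucleic acids, Zbp1, which binds left-handed nucleic acid, rose by 1.41 ± 0.51 (adjusted p = 0.0277), Dhx58 (LGP2) by 1.24 ± 0.30 and Ddx58 (RIG-I) by 0.57 ± 0.20. Ifih1 (MDA5) and Eif2ak2 (PKR) did not pass, at 0.24 ± 0.20 (adjusted p = 0.315) and 0.29 ± 0.14 (adjusted p = 0.0958). Of the genes of ISG15 conjugation, Isg15, the ubiquitin-like modifier, rose by 1.14 ± 0.38 (adjusted p = 0.0187) and Usp18, which removes it and restrains the receptor, by 0.70 ± 0.26 (adjusted p = 0.0324). Rtp4 (1.45 ± 0.31), Xaf1, a promoter of apoptosis (0.91 ± 0.27), and Ifi35 (0.95 ± 0.17) rose too. Parp14 and Parp9, ADP-ribosyl transferases, rose by 1.00 ± 0.36 and 0.75 ± 0.31, but their partner Dtx3l did not pass (0.56 ± 0.34, adjusted p = 0.159).

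Membrane and cell-intrinsic antiviral effectors split. Bst2, the tether of budding virus, had 17.3, 19.8, 20.6 and 17.1 CPM in wild-type and 77, 30.1, 53.6 and 49.7 in Fcgr2b-/- kidneys and rose by 1.37 ± 0.38 (adjusted p = 0.00564). Ifitm3 rose by 1.31 ± 0.23 (adjusted p = 0.000256), from 30, 36.1, 38 and 29.7 CPM to 122, 67.2, 95.9 and 62.5 CPM, and Mx1, a dynamin-like GTPase, by 1.05 ± 0.37. Samhd1, a dNTP hydrolase, did not pass (0.67 ± 0.30, adjusted p = 0.0607). Rsad2 (viperin) and Cmpk2, neighbours on chromosome 12, moved down instead. Cmpk2 had 29.3, 27.1, 29.3 and 26 CPM in wild-type and 22.6, 13.3, 17.8 and 18.5 in Fcgr2b-/- kidneys, without overlap, a change of -0.62 ± 0.17 (adjusted p = 0.00651). Rsad2 changed by -0.50 ± 0.17 (adjusted p = 0.0178), with 55.4, 47.4, 46 and 45.5 CPM in wild-type and 51.6, 25.9, 34.2 and 28.6 in Fcgr2b-/-, where library Fcr2bKO_21 overlapped the wild-type values. Trim25 was the other gene to fall, at -0.30 ± 0.06 (adjusted p = 0.000372), and Ifi44 had an estimate of -0.55 ± 0.26 (adjusted p = 0.0785) that did not pass. These 4 genes had the lowest ratios of macrophage to kidney level in wild-type mice (0.297 for Cmpk2, 0.383 for Trim25, 1.51 for Rsad2 and 1.73 for Ifi44).

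Spread between Fcgr2b-/- kidneys was wide for the list and followed the same libraries across genes. Library Fcr2bKO_21 was the highest of its group for 30 of the 32 genes and library Fcr2bKO_398 the lowest for 27. These ranks were not counted over all genes. Relative to the mean of the other Fcgr2b-/- kidneys, the list had median log2 distances of 0.65 and -0.70 in these libraries (all genes, 0.001 and -0.001). The macrophage marker sum was 2477 CPM in library Fcr2bKO_21 and 968 in library Fcr2bKO_398, and the summed T and NK cell markers ranged from 10.2 to 28.3 CPM across the group against 6.19 to 9.53 CPM in wild-type. Summed kidney epithelium markers were 10189 to 12273 CPM in Fcgr2b-/- and 25086 to 27736 in wild-type kidneys. Sums of monocyte markers (57.5 to 123 against 19.6 to 24.8 CPM), neutrophil markers (8.75 to 31.0 against 1.33 to 2.34 CPM) and fibroblast markers (330.5 to 962 against 133 to 200 CPM) did not overlap either. The part of these cell types in the changes was not tested. Without library Fcr2bKO_21 the count of genes higher fell to 12, all of them among the 22, and that of genes lower was 4, the added gene being Ifi44. Calls over all genes went from 7422 to 6917 without that library. With each of the 8 libraries left out in turn, 14 of the 25 calls were kept every time: Bst2, Dhx58, Ifi35, Ifitm3, Irf7, Irf9, Oas1a, Oas2, Oasl1, Oasl2, Rtp4 and Xaf1, which were higher, and Cmpk2 and Trim25, which were lower.

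**Figure D2:**
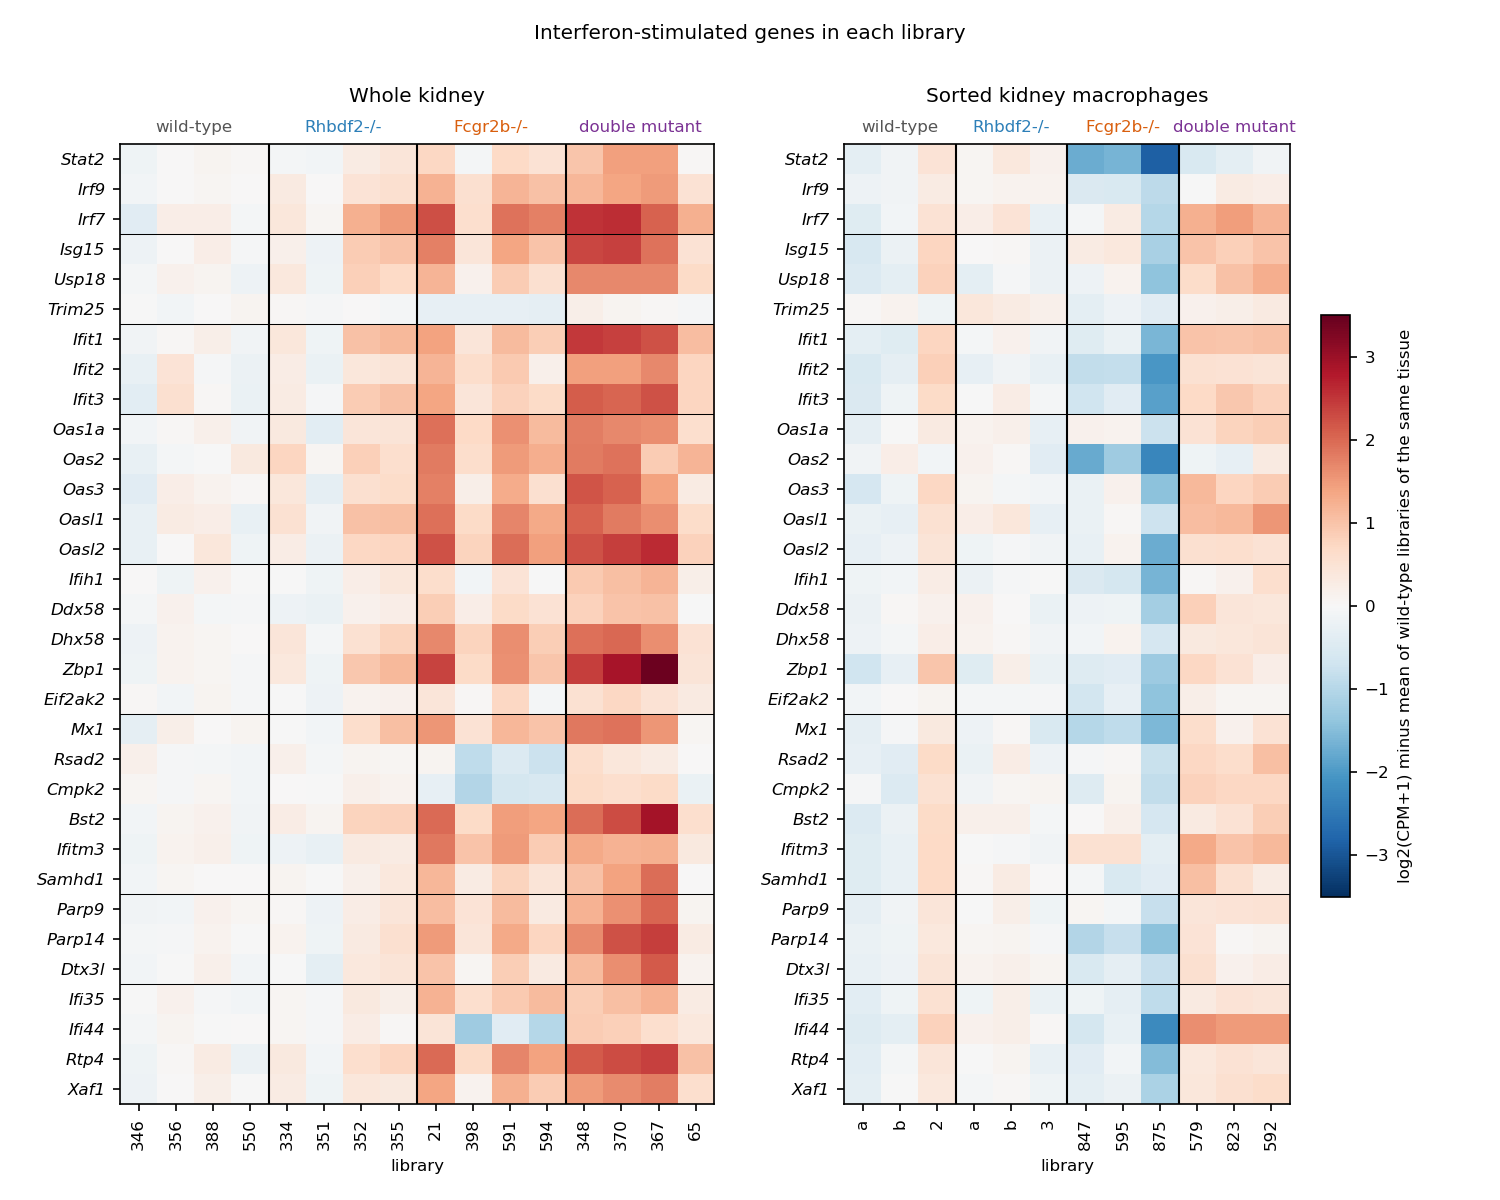
Each column is 1 library and each row 1 of the 32 genes, grouped by role. Colour is log2(CPM+1) minus the mean of the wild-type libraries of the same tissue. In kidney, most rows are red in Fcgr2b-/- and double-mutant libraries, with library DKO_65 paler, while Cmpk2, Rsad2, Trim25 and Ifi44 are pale or blue in Fcgr2b-/-. In macrophages, Stat2 and Oas2 are blue in all 3 Fcgr2b-/- libraries, and library Fcr2b_875 is blue in nearly every row.

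Double-mutant kidneys held the highest levels of the list, in 3 of the 4 libraries. Against wild-type, 28 of the 32 genes were higher and 0 lower, where 4.52% of all genes were higher and 2.77% lower, and the median log2 change was 1.36 (all genes, -0.03). At an unadjusted p below 0.05, 30 members passed, all higher (all genes, 2932 of 12315). Voom on the recovered reads called 19 higher and 0 lower. The largest change was that of Zbp1, with 1.92, 2.46, 2.38 and 2.11 CPM in wild-type and 16.2, 22.9, 33.5 and 3.42 in double mutants (2.30 ± 0.51, adjusted p = 0.02). Irf7 rose by 2.10 ± 0.38 (adjusted p = 0.0112) and had 86.6, 89.8, 62.9 and 35.3 CPM in double mutants. Ifit1 had 45.6, 42.9, 38.7 and 16.9 CPM in double mutants and rose by 2.04 ± 0.32 (adjusted p = 0.00652). In each of these 3 genes the 4 double-mutant values lay above the 4 wild-type values, and the last value, from library DKO_65, was the lowest of the group. Trim25, Rsad2, Cmpk2 and Ifi44 were the 4 genes that did not pass, at 0.07 ± 0.06, 0.33 ± 0.17, 0.42 ± 0.17 and 0.68 ± 0.26. The number passing fell to 10 without wild-type library WT_346, 12 without wild-type library WT_550, and 17, 11 and 13 without double-mutant libraries DKO_348, DKO_370 and DKO_367. Calls over all genes fell too, from 898 to 121, 155, 417, 185 and 190 in the same order. Bst2, Ifit1, Ifit2, Ifit3, Irf7, Irf9, Oas2, Oasl2, Rtp4 and Usp18 passed whichever library was left out. Marker sums of macrophages and neutrophils (4.51 to 19.6 CPM) were above, and those of kidney epithelium (19654 to 24070 CPM) below, every wild-type kidney. The T and NK cell sum was 26.9, 50.4, 93.4 and 9.15 CPM in libraries DKO_348, DKO_370, DKO_367 and DKO_65, against 6.19 to 9.53 CPM in wild-type. Of the T and NK cell markers 4 of 6 were called higher, and of the monocyte markers 2 of 4, with 0 lower. The part of these cell types was not tested.

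Next, double-mutant kidneys were set against Fcgr2b-/- kidneys, which asks what loss of Rhbdf2 adds where Fcgr2b is absent. Here 8 genes were higher and 0 lower, against 22.5% and 22.8% of all genes, with a median log2 change of 0.49 (all genes, 0.00). The share of members that were higher is thus close to that of all genes, while none was lower. Unadjusted, 9 members passed (all genes, 6479 of 12315), a smaller share than that of all genes, and voom called 9 higher and 0 lower. The 8 included the 3 genes that were lower in Fcgr2b-/- than in wild-type kidneys. Cmpk2 rose from 22.6, 13.3, 17.8 and 18.5 CPM to 44.7, 42.3, 44.6 and 23.8 CPM, a change of 1.04 ± 0.17 (adjusted p = 0.000277) with no overlap. Rsad2 rose by 0.83 ± 0.17 (adjusted p = 0.00117) and had 74.3, 64, 59.2 and 49 CPM in double mutants, and Fcgr2b-/- library Fcr2bKO_21 (51.6 CPM) alone exceeded the lowest of these. Trim25 rose by 0.37 ± 0.06 (adjusted p = 0.000136), from a narrow range of 102, 102, 101 and 99.4 CPM to 143, 133, 127 and 121 CPM. Ifi44 rose by 1.22 ± 0.26 (adjusted p = 0.00151), from 27.7, 7.91, 15.1 and 9.57 CPM to 38.4, 36.7, 31 and 26.3 CPM. The others were Ifit1 (1.10 ± 0.32), Ifit3 (0.96 ± 0.33), Usp18 (0.73 ± 0.26) and Ifih1 (0.60 ± 0.20). No OAS gene and no signalling factor passed, with medians of 0.14 over the 5 OAS genes and 0.47 over the 3 signalling factors.

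That count depended on single libraries. It was 21 without double-mutant library DKO_65 and 5 without any one of Fcgr2b-/- libraries Fcr2bKO_398 and Fcr2bKO_594 or double-mutant libraries DKO_348, DKO_370 and DKO_367. The 21 contained all 8. Calls over all genes were 5578 with all libraries, 4855 without library DKO_65 and 5106 to 5902 in the settings that gave 5 members. Cmpk2, Ifi44, Ifit1, Rsad2 and Trim25 passed with every single library left out. The macrophage marker sum was 968 to 2477 CPM in Fcgr2b-/- and 410 to 1614 CPM in double-mutant kidneys, and the T and NK cell marker sum was 9.15 to 93.4 CPM in double mutants. The kidney epithelium sum did not overlap, at 19654 to 24070 CPM in double mutants and 10189 to 12273 CPM in Fcgr2b-/- kidneys, and 5 of its 8 markers were called higher. Endothelium markers summed to 295 to 333 CPM and 338 to 378 CPM. Their part in the result was not tested, for Cmpk2 and Trim25, which had more CPM in wild-type kidney than in macrophages, as for the others.

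Library DKO_65 set the spread among double-mutant kidneys. It was the lowest double mutant for 31 of the 32 genes, and its distance below the mean of the other 3 had a median of 1.17 on the log2 scale, from 0.15 for Trim25 to 2.45 for Zbp1. Oas2, at 9.12, 9.70, 4.33 and 5.61 CPM, was the exception, with library DKO_367 lowest. Parp14 shows the pattern at a higher level, with 81.9, 122, 140.0 and 31.3 CPM, so that the last library stood within the Rhbdf2-/- range (27.6, 22.7, 31.8 and 38.2 CPM). For 22 genes library DKO_65 lay within the range of the Rhbdf2-/- kidneys, for 9 above it and for 1 below it. Against wild-type kidneys it was above the range for 23 genes, within it for 8 and below it for 1. These positions were not counted over all genes, for which the median log2 distance of library DKO_65 from the other double mutants was 0.02. The median SD of the 32 genes over the 4 double mutants was 0.62 on the log2(CPM+1) scale, against 0.13 in wild-type, 0.33 in Rhbdf2-/- and 0.45 in Fcgr2b-/- kidneys. Over all genes the median SD of double mutants was 0.14. Without library DKO_65 the median SD of the list was 0.18. The other 3 libraries did not agree on every gene: Dtx3l, Zbp1, Bst2 and Samhd1 still spanned 1.04, 1.01, 0.95 and 0.94 log2 units among them, with library DKO_367 highest in each. Oas2 spanned 1.00 with library DKO_367 lowest, and Usp18 spanned 0.02. Library DKO_367 had the highest macrophage (1614 CPM), T and NK cell (93.4 CPM) and conventional dendritic cell (35.5 CPM) sums of the double mutants. Its neutrophil sum (10.1 CPM) was not the highest, and the part of these sums was not tested. In library DKO_65 the macrophage marker sum (410 CPM) and the T and NK cell sum (9.15 CPM) were also the lowest of the double mutants, and mitochondrial transcripts made up 14.3% of reads against 9.19% to 9.73% in the other 3. The part of these in its low values was not tested.

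**Figure D3:**
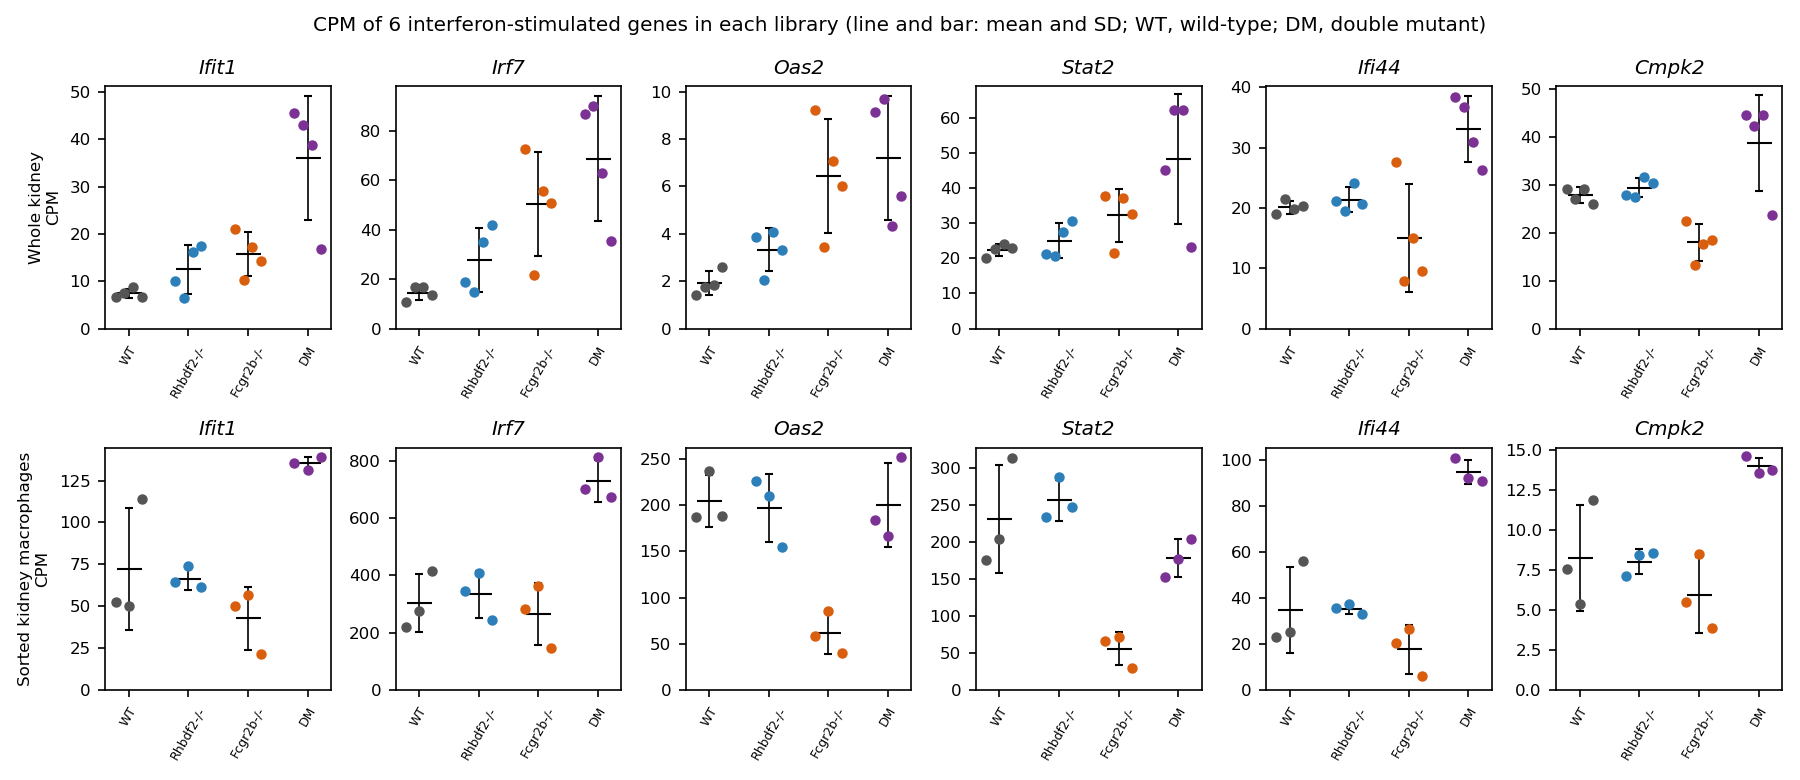
Points are libraries, and the line and bar are the mean and SD of a group (n = 4 in kidney, n = 3 in macrophages). The y axes give CPM from 0, for whole kidney (top) and sorted kidney macrophages (bottom). Double-mutant macrophages are tightly grouped for Ifit1, Ifi44 and Cmpk2, whereas double-mutant library DKO_65 is the lowest of its group for each gene but Oas2, and Oas2 and Stat2 fall in Fcgr2b-/- macrophages.

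Loss of Rhbdf2 alone gave no call. Between Rhbdf2-/- and wild-type kidneys 0 of the 32 genes passed in either direction with limma, where 0% of all genes were higher and 0% lower. No member passed at an unadjusted p below 0.05 (all genes, 272), voom called 0, and the authors' deposited table also gave 0. The estimates were positive for 30 genes, with a median of 0.22. Libraries iR2KO_352 and iR2KO_355 were above the wild-type range for 28 genes each and library iR2KO_351 for 0. How many of all genes lay above it was not counted. Relative to the mean of the other Rhbdf2-/- kidneys, the list had median log2 distances of 0.26, 0.37 and -0.57 in the same order. For all genes these medians were 0.002, -0.009 and -0.002. The Rhbdf2-/- kidneys thus differed among themselves on the list, with Irf7 at 19, 14.9, 35 and 42 CPM. The macrophage marker sum was 384 and 401 CPM in libraries iR2KO_352 and iR2KO_355 and 267 in library iR2KO_351, and its part was not tested.

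Double-mutant against Rhbdf2-/- kidneys gave 12 genes higher and 0 lower, where 2.32% of all genes were higher and 1.18% lower. At an unadjusted p below 0.05, 29 members passed (all genes, 2834 of 12315), but voom called 0. Rtp4, a chaperone of receptors at the cell surface that also restrains viral replication, changed most clearly, at 1.56 ± 0.31 (adjusted p = 0.0239), from 7.47, 5.25, 8.93 and 10.2 CPM to 28.6, 31.2, 34 and 12.4 CPM. The count rose to 29 without library DKO_65 and was 6 without Rhbdf2-/- library iR2KO_355. It was 0 without Rhbdf2-/- library iR2KO_334, iR2KO_351 or iR2KO_352 or without double-mutant library DKO_348, DKO_370 or DKO_367, so no call in this comparison was kept throughout. This was not particular to the list. Calls over all genes were 431 with all libraries, 1566 without library DKO_65, 256 without library iR2KO_355, and 27 to 71 where the list gave 0. Macrophage and neutrophil marker sums were higher in each double mutant than in each Rhbdf2-/- kidney (neutrophil, 4.51 to 19.6 against 1.32 to 2.71 CPM), and their part was not tested.

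A further contrast, the interaction, asks whether loss of Rhbdf2 acted differently with and without Fcgr2b. In kidney 4 of the 32 genes had a higher value and 0 a lower one, against 13.9% of all genes in each direction, so the share that was higher is close to that of all genes. Unadjusted, 4 passed (all genes, 4922 of 12315), a smaller share than that of all genes, and voom called the same number. They were Ifi44 (1.14 ± 0.36, adjusted p = 0.0301), Cmpk2 (0.97 ± 0.25, adjusted p = 0.0099), Rsad2 (0.76 ± 0.24, adjusted p = 0.0285) and Trim25 (0.38 ± 0.08, adjusted p = 0.00332). These are the genes with estimates below 0 in Fcgr2b-/- against wild-type kidneys and with the lowest macrophage to kidney ratios. In the same contrast, 5 of 8 kidney epithelium markers were called higher and 0 lower, with a median of 0.94. Macrophage markers had 0 of 9 called, with a median of -1.18, and monocyte and endothelium markers each had 1 of 4 lower and 0 higher. The part of these cell types was not tested. Without Rhbdf2-/- library iR2KO_351 or double-mutant library DKO_348, 2 genes remained. Calls over all genes went from 3418 to 2914 and 3169 in these settings.

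The same comparisons were made in sorted macrophages. Fcgr2b-/- against wild-type gave 0 genes higher and 11 lower, against 24.2% and 28.5% of all genes, with a median log2 change of -0.53 (all genes, -0.09). The share that was lower is near that of all genes, and none was higher. At an unadjusted p below 0.05, 15 members passed, all lower, against 6185 of 10523 genes in either direction, a larger share. Voom called 0 higher and 11 lower. The estimate was below 0 for 31 genes, Ifitm3 being the exception.

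The largest falls were those of Stat2 and Oas2. Stat2 had 175, 205 and 313 CPM in wild-type and 66, 71.6 and 30.3 CPM in Fcgr2b-/- macrophages. Every mutant value was below the lowest wild-type value, and the change was -2.08 ± 0.29 (adjusted p = 0.000131). Oas2 had 187, 237 and 188 CPM in wild-type and 58.9, 85.4 and 40.6 CPM in Fcgr2b-/-, also without overlap, a change of -1.76 ± 0.25 (adjusted p = 0.000132), while the other OAS genes did not pass, at -0.51 ± 0.37 (Oas3), -0.16 ± 0.24 (Oas1a), -0.31 ± 0.27 (Oasl1) and -0.63 ± 0.36 (Oasl2). Mx1 changed by -1.15 ± 0.22 (adjusted p = 0.00112), from 77.1, 94.4 and 123 CPM to 47.5, 51.9 and 32 CPM. Parp14 changed by -1.09 ± 0.19 (adjusted p = 0.000627) and Irf9 by -0.65 ± 0.15 (adjusted p = 0.00329), whereas Irf7 did not pass (-0.25 ± 0.31, adjusted p = 0.523). The remaining genes to fall were Ifit2 (-1.24 ± 0.34), Ifih1 (-0.91 ± 0.26), Eif2ak2 (-0.78 ± 0.21), Dtx3l (-0.56 ± 0.19) and Trim25 (-0.31 ± 0.11), with Ifit3, whose 67.2, 87.2 and 153 CPM in wild-type compare with 58.9, 73.5 and 25 CPM in Fcgr2b-/- (adjusted p = 0.0298).

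Part of this rested on 2 libraries that stood apart. Fcgr2b-/- library Fcr2b_875 was the lowest of its group for 31 of the 32 genes and wild-type library WT_2 the highest of its group for 30. These ranks were not counted over all genes. Relative to the mean of the others in the group, the list had median log2 distances of -0.85 and 0.74 (all genes, 0.006 and -0.019). Ifit1 shows both, with 52.8, 50.1 and 114 CPM in wild-type and 50.2, 57 and 21.7 in Fcgr2b-/- macrophages. The median change of the list was -0.26 without library Fcr2b_875, -0.35 without library WT_2, and 0.04 with both left out. With both out, an alternative added after the values were seen, 8 genes were lower, all among the 11 (Eif2ak2, Ifit2, Irf9, Mx1, Oas2, Parp14, Stat2 and Trim25), and 2 were higher (Ifitm3 and Isg15). Without library WT_2 alone, Ifitm3 was higher. Calls over all genes were 5551 with all libraries, 5125 with both out and 5672 without library WT_2. With each library left out in turn, Eif2ak2, Ifih1, Ifit2, Irf9, Mx1, Oas2, Parp14 and Stat2 kept their calls. The groups also differed in markers of other cells: conventional dendritic cell markers (3 of 5 listed were measured) summed to 34.8 to 80.0 CPM in wild-type and 1.69 to 10.8 in Fcgr2b-/-, T and NK cell markers (7 of 9) to 257 to 326 and 44.4 to 81.5, and kidney epithelium markers (7 of 8) to 1806 to 7870 and 456 to 1427. B and plasma cell markers (3 of 6) summed to 179 to 208 and 98.3 to 109 CPM, and plasmacytoid dendritic cell markers (3 of 7) to 182 to 488 and 50.7 to 94.5 CPM. The plasmacytoid sum was 1323 to 1810 CPM in wild-type whole kidney. Of its 3 markers, 1 was called higher and 2 lower in Fcgr2b-/- macrophages, so the sum is not read as a measure of these cells. Macrophage markers summed to 20988 to 29913 CPM in wild-type and 43499 to 57318 in Fcgr2b-/- libraries. Library WT_2 had 1.23% mitochondrial reads against 3.07% and 3.96% in libraries WT_b and WT_a. Its epithelium sum (1806 CPM) was the lowest, and its monocyte sum (850 CPM) the highest, of wild-type. Library Fcr2b_875 had the highest macrophage (57318 CPM) and lowest conventional dendritic (1.69 CPM) and T and NK cell (44.4 CPM) sums of its group. In both libraries the B and plasma cell sum lay within its group. The part of all these in the result was not tested.

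Double-mutant macrophages carried the interferon list well above Fcgr2b-/- macrophages. Of the 32 genes 31 were higher and 0 lower, against 15.8% and 13.8% of all genes, and the median log2 change was 1.14 (all genes, 0.04). All 32 passed at an unadjusted p below 0.05 (all genes, 4294 of 10523), each of them higher, and voom called 31 higher and 0 lower. For all 32 genes each of the 3 double-mutant libraries exceeded each of the 3 Fcgr2b-/- libraries. How many of all genes separate in this way was not counted. Ifi44 changed most, with 20.6, 26.7 and 6.04 CPM in Fcgr2b-/- and 101, 92.5 and 91.1 CPM in double mutants, a rise of 2.57 ± 0.43 (adjusted p = 0.00134). Stat2 rose by 1.74 ± 0.29 (adjusted p = 0.00131) to 153, 177 and 204 CPM, of which 1 lay below the wild-type values given above and 2 within them. The IFIT genes rose by 1.74 ± 0.34 (Ifit1), 1.74 ± 0.34 (Ifit2) and 1.81 ± 0.35 (Ifit3), and Ifit1 was close to constant in double mutants at 135, 132 and 139 CPM. Irf7 rose by 1.55 ± 0.31 (adjusted p = 0.00349), from 283, 362 and 148 CPM to 700.4, 813 and 675 CPM.

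All 5 OAS genes rose, from 0.88 ± 0.24 for Oas1a to 1.72 ± 0.25 for Oas2, and all 5 sensors, from 0.58 ± 0.17 for Dhx58 to 1.20 ± 0.36 for Zbp1. Mx1 had the smallest adjusted p of the list, 0.000547, at a change of 1.58 ± 0.22, from 47.5, 51.9 and 32 CPM to 149.5, 108 and 138 CPM. The smallest estimates were those of Trim25 (0.54 ± 0.11), which passed, and Dhx58, and Bst2 was the gene that did not pass (0.69 ± 0.28, adjusted p = 0.0804). Without library Fcr2b_875 the count was 22 and the median 0.81, and with library WT_2 left out as well the count was 31. Calls over all genes went from 3113 to 2339 and 2769 in these settings. Over the 6 ways of leaving out 1 library, 20 of the 31 calls were kept in all. Marker sums of T and NK cells (258 to 437 CPM) and conventional dendritic cells (81.5 to 185 CPM) were higher in double mutants than in every Fcgr2b-/- library. So were those of B and plasma cells (199 to 230.1 against 98.3 to 109 CPM), and the 1 measured marker each of neutrophils (159 to 168 against 90.4 to 113 CPM) and endothelium (55.2 to 88.7 against 6.58 to 25.9 CPM). The macrophage sum was lower, at 36204 to 41154 against 43499 to 57318 CPM. Their part was not tested.

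Against wild-type macrophages, double mutants had 4 genes higher and 0 lower, where 9.88% of all genes were higher and 8.58% lower, with a median of 0.55. A share of 4 in 32 is near that background. Unadjusted, 16 members passed (all genes, 3620 of 10523), and voom called 4 higher and 0 lower. The 4 were Ifi44 (1.54 ± 0.43, adjusted p = 0.03), Irf7 (1.30 ± 0.31, adjusted p = 0.0175), Oasl1 (1.25 ± 0.27, adjusted p = 0.0108) and Ifitm3 (1.16 ± 0.28, adjusted p = 0.0177). In Ifitm3 the double mutants had 876, 699 and 769 CPM and wild-type 259, 288 and 558 CPM, with no overlap. The count was 20 without wild-type library WT_2, 26 with library Fcr2b_875 left out as well, 0 without wild-type library WT_a or WT_b, and 1 without double-mutant library DKO_579. Calls over all genes went from 1943 to 3007, 3185, 537, 450 and 715 in the same order. Stat2 and Oas2 were the genes with estimates below 0 (-0.34 ± 0.29 and -0.04 ± 0.25). Marker sums that were higher in each double mutant were those of macrophages (36204 to 41154 against 20988 to 29913 CPM), conventional dendritic cells (81.5 to 185 against 34.8 to 80.0 CPM), neutrophils (159 to 168 against 72.0 to 105 CPM) and endothelium (55.2 to 88.7 against 21.0 to 22.3 CPM). Their part was not tested.

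Set against Rhbdf2-/- macrophages, double mutants had the same number of genes higher, 4, and 0 lower, against 9.2% and 9.03% of all genes, with a median of 0.62. They were Ifi44 (1.40 ± 0.43, adjusted p = 0.0431), Ifitm3 (1.22 ± 0.28, adjusted p = 0.0158), Irf7 (1.15 ± 0.31, adjusted p = 0.0287) and Oasl1 (1.15 ± 0.27, adjusted p = 0.0165). Unadjusted, 15 members passed (all genes, 3688 of 10523), and voom called 4 higher and 0 lower. When the 2 groups were fitted alone 22 genes were higher and Stat2 was lower. With libraries WT_2 and Fcr2b_875 left out, neither of which belongs to these groups, 23 were higher and Stat2 was again lower. Calls over all genes were 1918 in the main fit, 2053 with the 2 groups fitted alone and 2871 with libraries WT_2 and Fcr2b_875 left out. All 4 genotypes share 1 estimate of the spread in the main fit, and the median SDs of the list without each of those libraries are given below. The cause of these moves was not tested. The count was 2 without Rhbdf2-/- library iR2_KOa, 0 without Rhbdf2-/- library iR2_2KO3, and 1 and 2 without double-mutant libraries DKO_579 and DKO_823. Calls over all genes were 667, 632, 598 and 1300 in the same order. Marker sums of macrophages (36204 to 41154 against 23958 to 26485 CPM), monocytes (662 to 1149 against 371 to 443 CPM), neutrophils (159 to 168 against 99.8 to 104 CPM) and endothelium (55.2 to 88.7 against 23.3 to 41.6 CPM) were higher in each double mutant than in each Rhbdf2-/- library. Those of plasmacytoid dendritic cells (49.3 to 227 against 255 to 326 CPM) and kidney epithelium (582 to 2542 against 3649 to 3895 CPM) were lower. The plasmacytoid sum is not read as a measure of those cells, as stated above, and the part of all these sums was not tested.

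Between Rhbdf2-/- and wild-type macrophages 0 members were called by limma in either direction, where 0.019% of all genes were higher and 0% lower. Only Trim25 (0.29 ± 0.11) passed at an unadjusted p below 0.05 (all genes, 339), voom called 0, and the authors' deposited table gave 0. Estimates were above 0 for 15 genes and below 0 for 17, with a median of -0.02. In the interaction, 11 genes were higher and 0 lower, against 6.03% and 5.89% of all genes. Unadjusted, 30 members passed, all higher (all genes, 2961 of 10523), and voom called 11 higher and 0 lower. The largest values were those of Ifi44 (2.43 ± 0.61, adjusted p = 0.0257) and Ifit2 (1.97 ± 0.49, adjusted p = 0.0242), and the smallest adjusted p that of Mx1 (1.81 ± 0.31, adjusted p = 0.00743). The number was 7 without wild-type library WT_2, 3, 5 and 4 without Rhbdf2-/- libraries iR2_KOa, iR2_KOb and iR2_2KO3, and 6 and 4 without double-mutant libraries DKO_823 and DKO_592. Calls over all genes went from 1255 to 1269, 517, 695, 907, 1095 and 705 in the same order. Mx1, Oas2 and Parp14 passed whichever of the 12 libraries was left out. In this contrast 2 of 3 conventional dendritic cell markers were called higher (median 3.25), with 1 of 7 T and NK cell markers (1.49). The same held for 1 of 3 B and plasma cell markers (0.87). Of the macrophage markers 1 of 9 was lower and 0 higher (-0.19), and the other marker lists measured had no call. Their part was not tested.

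The 2 tissues were then compared gene by gene. They share no library, though they may share mice. For Fcgr2b-/- against wild-type, 27 of the 32 genes had a positive estimate in whole kidney and a negative one in macrophages, 1 was positive in both (Ifitm3) and 4 were negative in both (Trim25, Rsad2, Cmpk2 and Ifi44). Ifit2, Ifit3, Irf9, Oas2, Mx1 and Parp14 passed in both tissues and in opposite directions, and 0 genes passed as higher in both. These counts were not made over all genes, of which 29.5% were higher in kidney and 28.5% lower in macrophages. Oas2 gives the widest contrast, at 1.31 ± 0.27 in kidney and -1.76 ± 0.25 in macrophages. With libraries WT_2 and Fcr2b_875 left out of the macrophage fit, 13 genes were opposite in sign, and Ifit2, Irf9, Mx1, Oas2 and Parp14 passed in opposite directions. With Fcgr2b-/- library Fcr2bKO_21 left out of the kidney fit, Irf9 and Oas2 did so. The difference between tissues was not tested, as each tissue was normalized on its own.

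**Figure D4:**
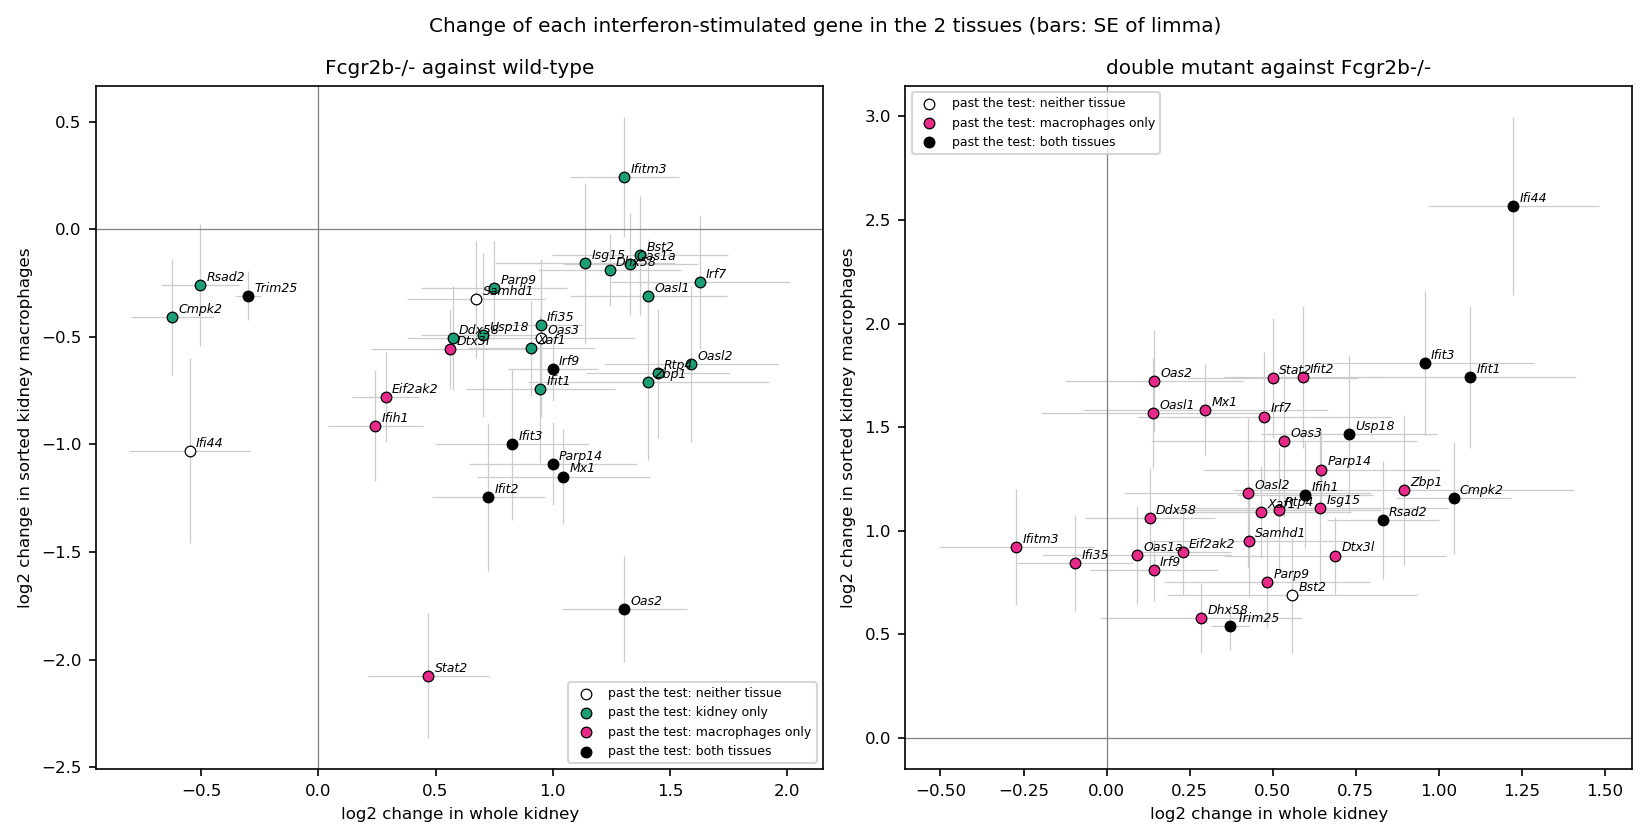
Each point is 1 of the 32 genes, with its log2 change in whole kidney on the x axis and in sorted macrophages on the y axis, and bars are SE. On the left (Fcgr2b-/- against wild-type) 27 points lie right of 0 and below 0. On the right (double mutant against Fcgr2b-/-) 30 points are above 0 on both axes and 8 passed in both tissues.

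For double mutant against Fcgr2b-/- the direction was shared. Of the 32 genes 30 had positive estimates in both tissues, and the other two, Ifitm3 and Ifi35, were negative in kidney and positive in macrophages. All 8 genes that rose in kidney also rose in macrophages (Usp18, Trim25, Ifit1, Ifit3, Ifih1, Rsad2, Cmpk2 and Ifi44), and 23 passed in macrophages alone. As 31 of the 32 passed in macrophages, almost any 8 members would overlap in this way. Ifi44 had the largest estimate in each tissue. The spread differed as well: among double-mutant macrophages the median SD of the list was 0.16, below the 0.22 of all genes, while wild-type and Fcgr2b-/- macrophages had 0.45 and 0.50. Leaving out wild-type library WT_2 brought the first of these to 0.14 and leaving out Fcgr2b-/- library Fcr2b_875 the second to 0.13.

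Genes upstream of the response were read from lists of the same pathway. Their counts stand against the shares of all genes given above. For Fcgr2b-/- against wild-type these were 29.5% higher and 30.8% lower in kidney, and 24.2% higher and 28.5% lower in macrophages. For double mutant against Fcgr2b-/- they were 22.5% and 22.8% in kidney, and 15.8% and 13.8% in macrophages. Of 18 interferons, receptors and kinases listed, 8 were measured in kidney and 9 in macrophages, and neither Ifnb1 nor the interferon alpha genes were among them. Tyk2 changed by -1.24 ± 0.22 and 0.66 ± 0.22 in Fcgr2b-/- against wild-type and in double mutant against Fcgr2b-/- macrophages, both past the threshold, whereas Jak1 did not pass in either. The receptor gene Ifnar1 was higher in Fcgr2b-/- kidneys (0.51 ± 0.09) and lower in Fcgr2b-/- macrophages (-0.65 ± 0.21), and Ifnar2 was higher in kidney (0.47 ± 0.15) and did not pass in macrophages (-0.11 ± 0.17). In kidney 4 of 8 were higher and 0 lower in Fcgr2b-/- against wild-type, and 2 were higher and 3 lower in double mutant against Fcgr2b-/-. In macrophages 3 of 9 were lower and 0 higher in the first comparison, and 2 were higher and 0 lower in the second. The 3 lower and the 2 higher in macrophages are shares near those of all genes.

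Genes that sense nucleic acids upstream of interferon were mixed in direction. In Fcgr2b-/- against wild-type, 9 of 20 were higher and 2 lower in kidney, and 3 of 21 were higher and 6 lower in macrophages, where the share lower is near that of all genes and the share higher below it. Tlr7, the endosomal sensor of single-stranded RNA, was higher in both, at 1.84 ± 0.23 in kidney and 0.65 ± 0.20 in macrophages. Tlr9, its counterpart for DNA, was lower in Fcgr2b-/- macrophages (-1.18 ± 0.21), as were Irf3 (-0.68 ± 0.16) and Mb21d1, which encodes the DNA sensor cGAS (-1.06 ± 0.18). In double mutant against Fcgr2b-/-, 2 of 20 were higher and 3 lower in kidney. In macrophages 7 of 21 were higher and 1 lower, among them Tlr9 (1.01 ± 0.21), Irf3 (0.63 ± 0.16) and Mb21d1 (0.82 ± 0.18). Of the negative regulators, 7 of 11 were higher and 0 lower in kidney and 5 of 9 higher and 1 lower in macrophages in Fcgr2b-/- against wild-type. Socs3, which is also induced by other cytokines, was higher in Fcgr2b-/- kidneys (3.38 ± 0.26) and macrophages (3.02 ± 0.47), while Adar, the RNA editing enzyme, was higher in the first (0.50 ± 0.15) and lower in the second (-0.65 ± 0.18). In double mutant against Fcgr2b-/-, 0 of 11 negative regulators were higher and 4 lower in kidney, and 3 of 9 were higher and 3 lower in macrophages.

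A further list of 52 interferon-stimulated genes outside the 32 was counted in the same way. In Fcgr2b-/- against wild-type, 29 of 45 measured were higher and 2 lower in kidney, and 5 of 50 were higher and 28 lower in macrophages. In double mutant against Fcgr2b-/-, 7 were higher and 1 lower in kidney, where the share higher is below that of all genes, and 38 were higher and 1 lower in macrophages. Uba7, the enzyme that activates ISG15, had the smallest p in both macrophage comparisons, at -1.70 ± 0.14 and 1.63 ± 0.14. Tap1, a peptide transporter, changed by -2.23 ± 0.30 in Fcgr2b-/- macrophages, and Lgals9 rose there (1.21 ± 0.14). Of the genes more dependent on interferon gamma, 0 of 9 measured in kidney were higher and 1 was lower in Fcgr2b-/- against wild-type, the lower one being Gbp3 (-1.22 ± 0.46), and 4 were higher in double mutant against Fcgr2b-/-, including Gbp3 (2.10 ± 0.46) and Iigp1 (2.69 ± 0.83). In macrophages 1 of 10 was higher and 6 lower in the first comparison, and 5 higher and 0 lower in the second, against the same shares of all genes.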

How the data were processed

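Per the labels, libraries came from whole kidney (TruSeq) or sorted macrophages (SMART-Seq v4), as single reads. The authors deposited log2 CPM per library and their own log2 fold changes with FDR (adjusted p-values), in edgeR tables per the file headers. The mm10 and GRCm38 builds are named in the submitters' processing notes, while the aligner and the counting, strand included, are not stated there or in the labels. The smallest CPM of each deposited table was taken as an added constant and subtracted. The low CPM values were then whole multiples of 1 read's worth (100% within a tolerance of 0.1 reads), so reads could be recovered for voom. CPM values printed and fitted with limma were left without this subtraction and still hold the constant. These reads covered listed genes only.

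Log2 CPM was turned into log2(CPM + 1) and fitted with limma 3.58.1 (trend, R 4.3.3), all 4 genotypes of a tissue in 1 fit. P-values were adjusted by Benjamini-Hochberg over all genes listed for the tissue, and a gene was called at an adjusted p below 0.05. The script was tested on simulated data. Alternatives were a pseudocount of 0.25, a filter at mean log2 CPM of 1, median-of-ratios scaling, voom, fits of the compared groups alone, the authors' deposited table, single libraries left out, and a replicate block. Leaving out macrophage libraries WT_2 and Fcr2b_875 together was added after seeing the data. In kidney 3 reads corresponded to between 0.0677 and 0.106 CPM, and in macrophages to between 0.0832 and 0.0988.

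The members and lists were chosen with earlier results of these data known. Any member could be named. From other lists, Ifnar1, Ifnar2, Jak1, Tyk2, Irf1, Irf3, Tlr7 and Ifnb1 could be named, and up to 4 called genes per comparison with the smallest p. Adar in Fcgr2b-/- against wild-type falls outside that rule and was chosen after its values were seen. A result withheld for evaluation is not reported here.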

Additional observations from a re-analysis of the deposited data

Results flagged for a closer look

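In groups of 4 kidney libraries, the gap of the highest or lowest library to its nearest neighbour, divided by the range of the group, was compared with Dixon's 95% critical value for 4 samples. Of 128 groups of member CPM values, 5 exceeded it, where chance alone gives about 5% of groups. Double-mutant library DKO_65 was the low value for Usp18 (0.973), Cmpk2 (0.885) and Ifitm3 (0.842). Rhbdf2-/- library iR2KO_351 was the outlying value for Oas1a (0.831) and wild-type library WT_356 for Ddx58 (0.928).

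The effect of Rhbdf2 loss differed by a test of the interaction between mice with and without Fcgr2b. In kidney the log2 differences were 1.14 for Ifi44, 0.97 for Cmpk2, 0.76 for Rsad2 and 0.38 for Trim25. In macrophages they were 2.43 for Ifi44, 1.97 for Ifit2, 1.81 for Mx1, 1.79 for Oas2, 1.76 for Ifit1, 1.76 for Ifit3, 1.55 for Stat2, 1.46 for Oasl1, 1.27 for Ifih1, 1.25 for Parp14 and 1.15 for Xaf1.

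For Fcgr2b-/- against wild-type, 4 genes were opposite in the 2 tissues with every mutant library beyond the wild-type range on its side, and this difference between tissues was not tested. How many of all genes do so was not counted. Irf9 was 1.00 in kidney and -0.65 in macrophages, Oas2 1.31 and -1.76, Mx1 1.05 and -1.15, and Parp14 1.00 and -1.09.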

How the results depend on the processing

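Directions held for each member call under the alternatives run, with no change of sign, but counts of calls moved. With single libraries left out, members higher in kidney ranged from 12 to 26 (Fcgr2b-/- against wild-type), 5 to 21 (double mutant against Fcgr2b-/-), 10 to 29 (double mutant against wild-type), 0 to 29 (double mutant against Rhbdf2-/-) and 2 to 5 (interaction). In macrophages they ranged from 0 to 1, 22 to 31, 0 to 20, 0 to 3 and 3 to 15 in the same order, and members lower in the first from 8 to 16. Fits of the compared groups alone gave 5 for double mutant against Fcgr2b-/- and 5 against Rhbdf2-/- in kidney, and 22 higher and 1 lower against Rhbdf2-/- in macrophages. Voom gave 0 for double mutant against Rhbdf2-/- kidneys. With both outlying macrophage libraries left out, members higher were 2 (Fcgr2b-/- against wild-type), 26 (double mutant against wild-type) and 23 (against Rhbdf2-/-, with 1 lower). Calls over all genes also moved, ranging from 27 to 1566 for double mutant against Rhbdf2-/- kidneys with single libraries left out. The causes were not tested.

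The median SD of the list over double-mutant kidneys was 0.178 without library DKO_65 and up to 0.702 without another one. Over double-mutant macrophages it ranged from 0.0758 (without library DKO_579) to 0.150. Of calls over all genes, the share that was higher moved from 62.0% to 49.5% with voom for double mutant against wild-type kidneys, and from 66.4% to 77.2% with median-of-ratios scaling and 54.5% with voom against Rhbdf2-/-.

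Whether letters shared by macrophage wild-type and Rhbdf2-/- libraries pair them was not settled. Correlations of deviations from the group means were 0.242 for a and -0.05 for b. Across letters they were -0.293 (WT_a with iR2_KOb) and 0.279 (WT_b with iR2_KOa). Deviations within a group of 3 sum to 0, so these values cannot decide it, and the main fit used no pairing. A fit with the replicate block called 0 members in either direction. With 3 macrophage libraries in each group, single libraries set several counts. Kidney genotype and lane cannot be told apart. Genes with low CPM, such as Zbp1 in wild-type kidney, have changes understated by the added 1 CPM.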
